A study of Mus musculus with 3 samples.

Results

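The Dlk1-Dio3 region of mouse chromosome 12 holds one of the largest groups of microRNAs (miRNAs) in the genome. A list of 34 miRBase accession numbers of mature miRNAs from this region was followed in the postnatal heart. The accessions were chosen by identity, with earlier results of these data known. All 34 were found among the 1900 mature accessions of the count table, each with 1 row. Small RNA was sequenced from hearts of wild type C57BL/6 mice at postnatal day 1 (P1), day 7 (P7) and day 28 (P28), with 1 library at each age. The groups shared strain and genotype and differed in age alone, as far as the labels state. The labels give the tissue as hearts and the study names cardiac ventricles. How many animals entered a library is not stated in the sources used here.

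miRNAs are short RNAs that guide the silencing of messenger RNAs, chiefly through the bases of their seed near the 5′ end. The Dlk1-Dio3 region is imprinted. The protein-coding genes Dlk1, Rtl1 and Dio3 are active on the paternal chromosome, and the long noncoding RNAs Meg3, Rian and Mirg and the miRNAs are made from the maternal chromosome. The miRNA hairpins lie in or near these noncoding transcripts, and those antisense to Rtl1 direct cleavage of its messenger RNA. As background, these miRNAs are known for high levels in the embryo, the placenta and the brain.

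RefSeq (GRCm38, the assembly also called mm10) places Dlk1 at chr12:109452485-109463336, Meg3 at chr12:109540996-109571729 and Rtl1 at chr12:109564900-109604418. Rian follows at chr12:109603945-109661716, Mirg at chr12:109734981-109749458 and Dio3 at chr12:110279230-110281097. Between Dlk1 and Dio3, its miRNA table lists 58 hairpins, of which 54 lie on the plus strand and 4 on the minus strand. Counted separately from the hairpins, it lists 113 different mature names there, with 104 different seeds. The table of counts identifies miRNAs by accession only, and no source used here pairs these accessions with names. Members are therefore given by accession, no sequence of the locus is assigned to a member, and membership of the cluster was taken from the list and not checked against position. The planned groups by hairpin, the comparison of both arms of a hairpin and the check of cardiac marker miRNAs needed names and were not run.

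Several miRNAs of the locus share a seed. In the RefSeq table, 9 seeds are each shared by several names, 18 names in all. The examples are shown because they run from near copies to a pair that has little more than the seed in common, with the seed, bases 2 to 8, in capitals.
mmu-miR-379-3p: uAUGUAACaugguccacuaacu
mmu-miR-411-3p: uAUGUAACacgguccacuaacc
mmu-miR-376c-5p: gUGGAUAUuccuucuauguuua
mmu-miR-376b-5p: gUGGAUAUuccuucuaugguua
mmu-miR-494-5p: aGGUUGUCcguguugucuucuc
mmu-miR-410-5p: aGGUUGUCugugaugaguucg

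Other hairpins of the locus lie opposite each other on the 2 strands. Hairpins on the minus strand overlap 3 hairpins of the plus strand, giving 6 pairs of mature miRNAs that share 17 to 21 positions. Both examples below are shown because 2 members had rows that matched another accession read for read. The first pair lies at chr12:109595331-109595352 on the plus strand and chr12:109595329-109595350 on the minus strand, and the 2 sequences are complementary over 20 positions. The second pair comes from hairpins that overlap on opposite strands, but the 2 mature miRNAs themselves do not overlap. Their letters are nearly the same, and the 21 bases of mmu-miR-299b-5p are all contained in the 22 bases of mmu-miR-299a-5p. They lie at chr12:109710673-109710693 on the minus strand and chr12:109710644-109710665 on the plus strand. Seeds are again in capitals.
mmu-miR-136-5p: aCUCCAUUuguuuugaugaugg
mmu-miR-3071-3p: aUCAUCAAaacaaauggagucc
mmu-miR-299a-5p: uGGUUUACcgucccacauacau
mmu-miR-299b-5p: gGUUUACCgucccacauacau

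Of the 29 members with at least 20 reads over the 3 libraries, 2 had counts identical in every library to those of an accession outside the list. MIMAT0000148 and MIMAT0014851 both had 74 reads in the P1 library, 166 in the P7 library and 33 in the P28 library. MIMAT0000377 and MIMAT0022837 both had 9 reads in the P1 library, 18 in the P7 library and 7 in the P28 library. The reads of each such pair cannot be told apart, and whether they are the sequences above was not tested.

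Total counts were 1944237 in the P1 library, 2465680 in the P7 library and 2842526 in the P28 library. Levels are given in CPM, the reads of an accession per 1000000 counts of its library. A single library stood for each age, so variation between hearts is unknown. No p-value is given, and the 95% intervals (Wilson for levels and shares, Clopper-Pearson for ratios) cover counting error only. Reads need not be independent molecules, as the sources name no molecular identifiers. Ratios between libraries are log2 ratios of CPM with a pseudocount of 0.5 reads, and they compare libraries, not ages.

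Here the cluster means the 34 listed accessions, fewer than the 113 mature names of the locus. Accessions outside the list may include other miRNAs of the locus. The cluster in this sense made up a nearly equal part of the P1 and P7 libraries and a much smaller part of the P28 library. Its members together had 12510 reads in the P1 library, 15014 in the P7 library and 4458 in the P28 library. These were 6434 CPM (6323 to 6548) in the P1 library, 6089 CPM (5993 to 6187) in the P7 library and 1568 CPM (1523 to 1615) in the P28 library. The cluster thus held 0.643% of the counts in the P1 library, 0.609% in the P7 library and 0.157% in the P28 library. The intervals of the P1 and P7 levels did not overlap, yet the log2 ratio between them was small, at -0.08 (-0.11 to -0.05). The order of P1 and P7 depended on the scaling, since the ratio was 0.050 when the 10 most abundant accessions were left out of the library totals.

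At P28 the cluster was 4.10-fold lower than at P1 (3.96 to 4.25) and 3.88-fold lower than at P7 (3.75 to 4.02). The log2 ratios were -2.04 (-2.09 to -1.99) against P1 and -1.96 (-2.01 to -1.91) against P7. The median accession was also lower in the P28 library. Over the 279 mature accessions whose mean level reached 10 CPM, the median log2 ratio was -0.74 from P1 to P28 and -0.79 from P7 to P28. TMM scaling, which centres the typical accession near no change, moved these medians to -0.09 and -0.14, and the ratios of the cluster were then -1.39 and -1.31. The cluster lay below the median accession by 1.30 on the log2 scale against P1 and by 1.17 against P7, and these gaps were equal under each of the 4 other scalings by construction. In whole tissue, fewer cells that make these miRNAs and less of them in each cell cannot be told apart.

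**Figure D1:**
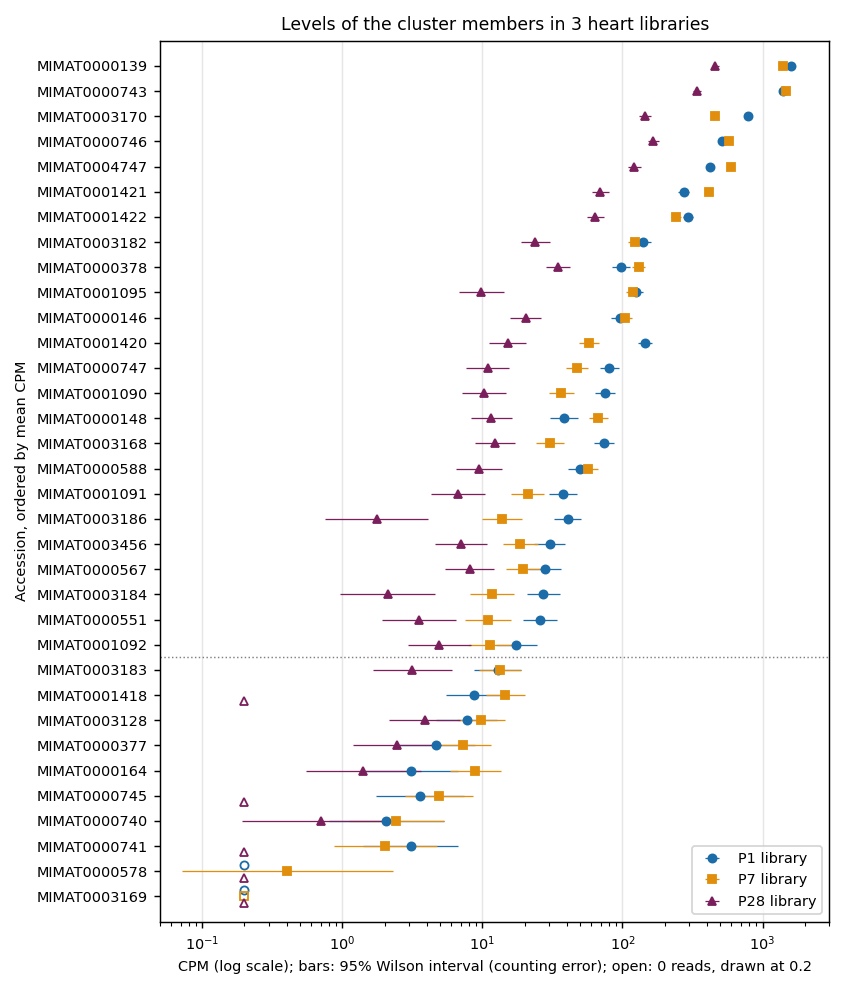
Level of each of the 34 members in CPM (log axis) in the P1, P7 and P28 libraries, ordered by mean level, with 95% Wilson intervals as bars and open symbols, drawn at 0.2 CPM, where a library had no read. The dotted line separates the 24 members with a mean of at least 10 CPM from the 10 below, and the P28 symbol is the lowest of the 3 for 32 of the 34 members. This count was not made for accessions outside the list.

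The cluster was dominated by few members. The 7 members with a mean above 100 CPM held 81.8% of the cluster's reads in the P1 library, 84.5% in the P7 library and 87.0% in the P28 library. The remaining 27 members shared the rest. Of the 100 most abundant accessions, 5 were members in the P1 library, 6 in the P7 library and 3 in the P28 library.

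MIMAT0000139 was the most abundant member by its mean, with 1589 CPM (3090 reads, 1534 to 1646) in the P1 library, 1389 CPM (3425 reads, 1343 to 1436) in the P7 library and 461 CPM (1309 reads, 436 to 486) in the P28 library. Its rank among all mature accessions was 43 in the P1 library, 46 in the P7 library and 66 in the P28 library. The log2 ratio was -0.19 (-0.26 to -0.12) from P1 to P7 and -1.79 (-1.88 to -1.69) from P1 to P28. By column totals, most of the difference thus lay between the P7 and P28 libraries. With TMM the log2 ratios were -0.19 from P1 to P7 and -1.14 from P1 to P28.

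MIMAT0000743 was nearly as abundant, with 1389 CPM (2701 reads) in the P1 library, 1479 CPM (3647 reads) in the P7 library and 338 CPM (962 reads) in the P28 library. It was the leading member at P7, where its interval of 1432 to 1528 CPM overlapped that of MIMAT0000139 slightly. Its log2 ratio was 0.09 (0.02 to 0.16) from P1 to P7 and -2.13 (-2.23 to -2.02) from P7 to P28. Together the pair held 46.3% of the cluster's reads in the P1 library, 47.1% in the P7 library and 50.9% in the P28 library.

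MIMAT0003170, the third in order, differed from both in the size of the first step. It was at 789 CPM (1534 reads, 751 to 829) in the P1 library, 457 CPM (1126 reads, 431 to 484) in the P7 library and 145 CPM (131 to 159) in the P28 library. The log2 ratios were -0.79 (-0.90 to -0.68) from P1 to P7 and -1.66 (-1.83 to -1.49) from P7 to P28.

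The next pair was higher at P7 than at P1. MIMAT0000746 had 509 CPM (990 reads) in the P1 library, 577 CPM (1422 reads) in the P7 library and 165 CPM (470 reads) in the P28 library. MIMAT0004747 had 421 CPM (818 reads) in the P1 library, 591 CPM (1457 reads) in the P7 library and 122 CPM (346 reads) in the P28 library. At P7 against P1, the log2 ratio was 0.18 (0.06 to 0.30) for MIMAT0000746 and 0.49 (0.37 to 0.62) for MIMAT0004747, so the intervals did not overlap. By P28 both were lower than at P1, with log2 ratios of -1.62 (-1.78 to -1.46) for MIMAT0000746 and -1.79 (-1.97 to -1.61) for MIMAT0004747.

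MIMAT0001421 and MIMAT0001422 stood at nearly one level at P1 and apart at P7. MIMAT0001421 went from 273 CPM (531 reads, 251 to 297) in the P1 library to 411.2 CPM (1014 reads, 387 to 437) in the P7 library and 69.3 CPM (197 reads, 60.3 to 79.7) in the P28 library. MIMAT0001422 went from 292 CPM (567 reads, 269 to 317) in the P1 library to 242 CPM (597 reads, 223 to 262) in the P7 library and 64.0 CPM (182 reads, 55.4 to 74.0) in the P28 library. Their intervals overlapped at P1 and P28 and not at P7. The log2 ratio from P1 to P7 was 0.59 (0.44 to 0.74) for MIMAT0001421 and -0.27 (-0.44 to -0.10) for MIMAT0001422.

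Below these, 17 members had means between 10 and 100 CPM. MIMAT0003182 was at 141 CPM (274 reads) in the P1 library, 123 CPM (304 reads) in the P7 library and 23.9 CPM (68 reads) in the P28 library. MIMAT0000378 was at 97.7 CPM (190 reads) in the P1 library, 130 CPM (321 reads) in the P7 library and 34.8 CPM (99 reads) in the P28 library. These had similar means, and MIMAT0000378 had the smaller difference. Its log2 ratio from P1 to P28 was -1.48 (-1.85 to -1.13), the ratio nearest to no change among the 24 members, against -2.55 (-2.96 to -2.17) for MIMAT0003182.

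MIMAT0001095 was at like levels at P1 and P7 and far lower at P28. It had 124 CPM (242 reads, 110 to 141) in the P1 library, 119 CPM (294 reads) in the P7 library and 9.85 CPM (28 reads, 6.82 to 14.2) in the P28 library. Its log2 ratio was -0.06 (-0.31 to 0.19) from P1 to P7 and -3.57 (-4.21 to -3.04) from P7 to P28, or 12.1-fold lower. This was the lowest ratio of the 24 members between these ages.

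Other members were already lower at P7. MIMAT0001420, which was singled out after its values were seen, had 144 CPM (280 reads, 128 to 162) in the P1 library, 57.6 CPM (142 reads, 48.9 to 67.9) in the P7 library and 15.1 CPM (43 reads, 11.2 to 20.4) in the P28 library. Its log2 ratio from P1 to P7 was -1.32 (-1.62 to -1.03). It was the only one of the 24 whose whole interval lay past 2-fold lower at P7, and accessions outside the list were not counted in this way.

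Of the 3 lowest ratios from P1 to P28 among the 24 members, one was that of MIMAT0001095, at -3.64 (-4.28 to -3.09) with 28 reads at P28. The other two belonged to members with single-digit counts at P28. MIMAT0003186 went from 40.6 CPM (79 reads) in the P1 library to 13.8 CPM (34 reads) in the P7 library and 1.76 CPM (5 reads, 0.751 to 4.12) in the P28 library. MIMAT0003184 went from 27.3 CPM (53 reads) in the P1 library to 11.8 CPM (29 reads) in the P7 library and 2.11 CPM (6 reads, 0.967 to 4.61) in the P28 library. The log2 ratios from P1 to P28 were -4.40 (-6.19 to -3.25) for MIMAT0003186 and -3.59 (-5.20 to -2.47) for MIMAT0003184. The intervals of all 3 ratios overlapped, so their order was not detectable at this depth.

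Between P1 and P7 the 24 members were split into 2 courses by the sign of their log2 ratio. A total of 8 were higher at P7, with log2 ratios between 0.09 and 0.82, and 16 were lower, between -1.55 and -0.06. The interval lay wholly on one side of no change for 6 of the 8 and for 12 of the 16. These intervals cover counting error only. The same count was not made for accessions outside the list, so it does not set the members apart. The split depended on the scaling. MIMAT0001095, one of the 16, had a ratio of -0.06, and of 0.07 with the 10 most abundant accessions left out of the totals. The 8 comprised MIMAT0000743, MIMAT0000746, MIMAT0004747, MIMAT0001421, MIMAT0000378, MIMAT0000146, MIMAT0000588 and MIMAT0000148.

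MIMAT0000148, one of the members with a matching accession, had the largest ratio from P1 to P7 among these 8. It was at 38.1 CPM (74 reads) in the P1 library, 67.3 CPM (166 reads) in the P7 library and 11.6 CPM (33 reads) in the P28 library, and its log2 ratio from P1 to P7 was 0.82 (0.42 to 1.24). MIMAT0000146 was at 96.2 CPM (187 reads) in the P1 library, 104 CPM (257 reads) in the P7 library and 20.4 CPM (58 reads) in the P28 library. MIMAT0000588 was at 49.9 CPM (97 reads) in the P1 library, 56.8 CPM (140 reads) in the P7 library and 9.50 CPM (27 reads) in the P28 library. The intervals of the last 2 from P1 to P7 spanned no change, -0.16 to 0.40 for MIMAT0000146 and -0.20 to 0.58 for MIMAT0000588.

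In calls by a 2-fold threshold from P1 to P7, 0 of the 24 members were higher, where 11.5% of the 279 accessions were, and 6 were lower, where another 11.5% were. The 6 were MIMAT0001420, MIMAT0001090, MIMAT0003168, MIMAT0003186, MIMAT0003184 and MIMAT0000551, with log2 ratios between -1.55 and -1.03. The whole interval was past the threshold for 1 of the 6, a count not made over all 279 accessions. None of the 6 had a mean of at least 100 CPM. The median log2 ratio of the members was -0.39, beside 0.03 for all 279. This gap depended on the filter. With a filter at 1 CPM the medians were -0.13 for the members and 0.02 for all accessions, and with no filter both were -0.06. The unfiltered medians include accessions with almost no reads, whose ratios the pseudocount sets. Without MIMAT0000578, which had a single read, the unfiltered median of the members was -0.13. Among the 7 members above 100 CPM the median was 0.09. The 12 more abundant of the 24 had a median of 0.01 and the 12 less abundant one of -0.80. Abundance and the filter both used the mean over the libraries being compared, so this split is a description and not a test.

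**Figure D2:**
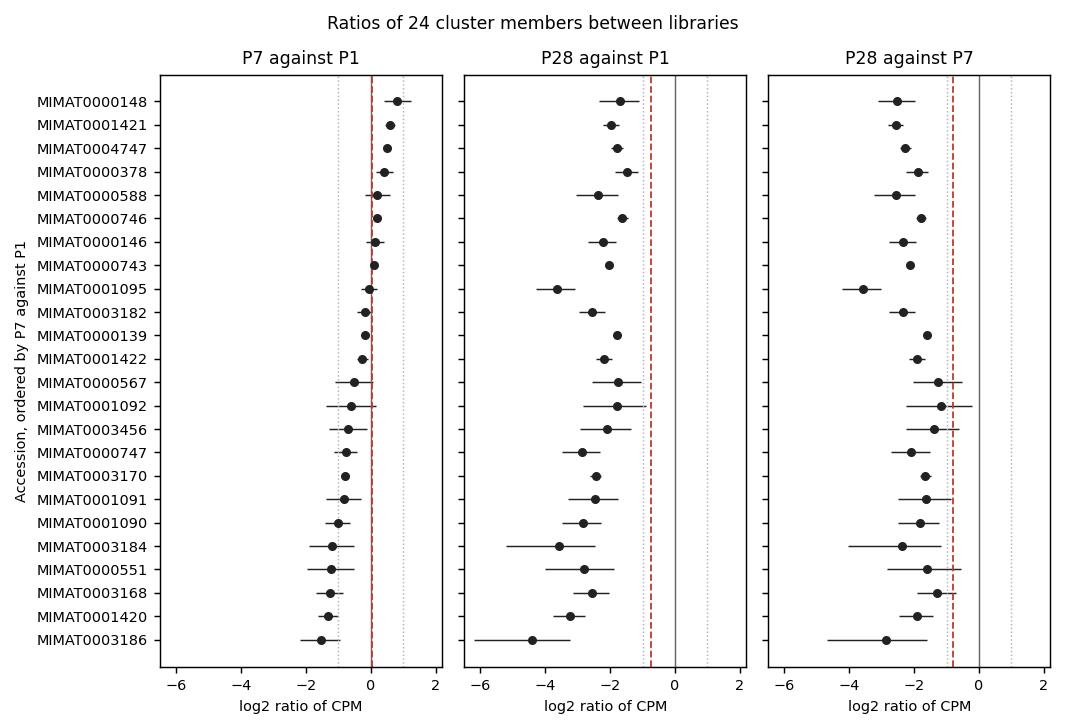
Log2 ratio of CPM (x axis) for the 24 members with a mean of at least 10 CPM, ordered by their ratio from P1 to P7, with 95% Clopper-Pearson intervals as bars. Dotted lines mark 2-fold, the solid line no change and the dashed line the median of all 279 accessions, and all 24 members lie beyond the 2-fold line on the lower side in both comparisons with P28.

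At P28 the members were all on one side. Each of the 24 was at least 2-fold lower than at P1, where 42.7% of the 279 accessions were at least 2-fold lower and 13.6% at least 2-fold higher. The whole interval was past the threshold for 23 of the 24, the exception being MIMAT0001092. This stricter count was not made over all 279 accessions, so the 42.7% is not its background. At least 4-fold lower were 16 of the 24, beside 22.9% of all accessions. The median log2 ratio of the members was -2.30, with a range from -4.40 to -1.48, beside -0.74 for all 279 and -0.54 for the 255 accessions outside the list. These 24 passed a filter on their mean over the 3 libraries, which a miRNA that is high early and low late can pass through its early level.

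Against P7, each of the 24 was again at least 2-fold lower at P28, where 42.7% of the 279 accessions were lower and 2.87% higher. The whole interval was past the threshold for 18 of them, a count again not made over all 279. At least 4-fold lower were 11, beside 15.8% of all accessions. The median log2 ratio was -1.92, with a range from -3.57 to -1.18, beside -0.79 for all 279. The 2 comparisons share the P28 library, so they do not bear on each other independently.

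The scaling changed these counts for the members and for all 279 accessions. Under TMM, 22 of the 24 members were at least 2-fold lower and 0 higher from P1 to P28. Over all 279 accessions, 80 (28.7%) were then lower and 70 (25.1%) higher, in place of 119 and 38. Against P7, TMM gave 18 of the 24 members lower and 0 higher. Over all 279, 64 (22.9%) were lower and 32 (11.5%) higher, in place of 119 and 8. DESeq2 size factors gave 16 of the 24 members and 58 of the 279 accessions (20.8%) lower from P7 to P28. The calls lost there under both scalings included that of MIMAT0000139, the most abundant member, with log2 ratios of -0.95 under TMM and -0.87 under DESeq2 size factors. In order of the ratio from P1 to P28, the members took places between 7 and 87 of 279, counted from the lowest, with a median of 53.5. The place of a member does not depend on the scaling. At P7 against P1 they were spread from place 8 to 233.

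**Figure D3:**
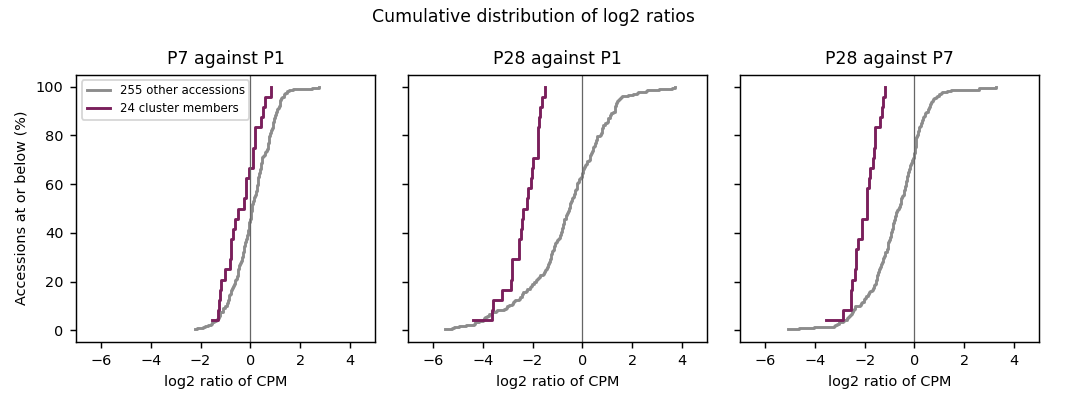
Cumulative percentage of accessions (y axis) at or below a log2 ratio of CPM (x axis) for the 24 members and the 255 other accessions of at least 10 CPM, in each comparison. From P1 to P7 the members lie between -1.55 and 0.82, inside the wider range of the others, and in both comparisons with P28 the curve of the members ends below -1 while that of the others extends above 0.

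The make-up of the cluster was compared through the share of each member in the cluster's reads, which does not depend on the library total. MIMAT0000139 held 24.7% in the P1 library, 22.8% (22.1 to 23.5) in the P7 library and 29.4% (28.0 to 30.7) in the P28 library. MIMAT0000743 held 21.6% (20.9 to 22.3) in the P1 library, 24.3% in the P7 library and 21.6% (20.4 to 22.8) in the P28 library. The first member therefore gained in share at P28, and the other gained at P7 and returned.

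MIMAT0003170 lost share early, from 12.3% (11.7 to 12.8) in the P1 library to 7.50% (7.09 to 7.93) in the P7 library, and stood at 9.22% (8.40 to 10.1) in the P28 library. MIMAT0000746 gained over time, from 7.91% (7.45 to 8.40) in the P1 library to 9.47% (9.01 to 9.95) in the P7 library and 10.5% (9.68 to 11.5) in the P28 library. MIMAT0004747 peaked at P7, with 6.54% (6.12 to 6.99) in the P1 library, 9.70% (9.24 to 10.2) in the P7 library and 7.76% (7.01 to 8.58) in the P28 library. MIMAT0001421 peaked there too, with 4.24% in the P1 library, 6.75% in the P7 library and 4.42% in the P28 library. MIMAT0001422 held 4.53%, 3.98% and 4.08% in the same order.

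Taken by course, the 8 members that were higher at P7 held 44.7% of the cluster's reads in the P1 library, 56.1% in the P7 library and 49.2% in the P28 library. The 16 others held 54.6%, 42.8% and 50.1% at those ages. The 8 were chosen by their P7 and P1 levels, so the shares at these ages describe that choice. From P7 to P28 the 8 had log2 ratios between -2.57 and -1.80, with a median of -2.31, and the 16 between -3.57 and -1.18, with a median of -1.74. Both courses used the P7 library, so these ratios are a description and not a test.

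Each member was also set against the sum of all other members. At P7 against P1, 6 of the 24 lay above the rest of the cluster and 12 below it by more than counting error. At P28 against P1 there were 4 above, which were MIMAT0000139, MIMAT0000746, MIMAT0004747 and MIMAT0000378, and 9 below. The log2 ratio relative to the rest was -1.62 (-2.26 to -1.07) for MIMAT0001095 and -2.37 (-4.16 to -1.22) for MIMAT0003186. For MIMAT0000378 it was 0.56 (0.19 to 0.92). The members thus differed in their ratios by more than counting error. Variation between hearts could not be set against these differences.

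**Figure D4:**
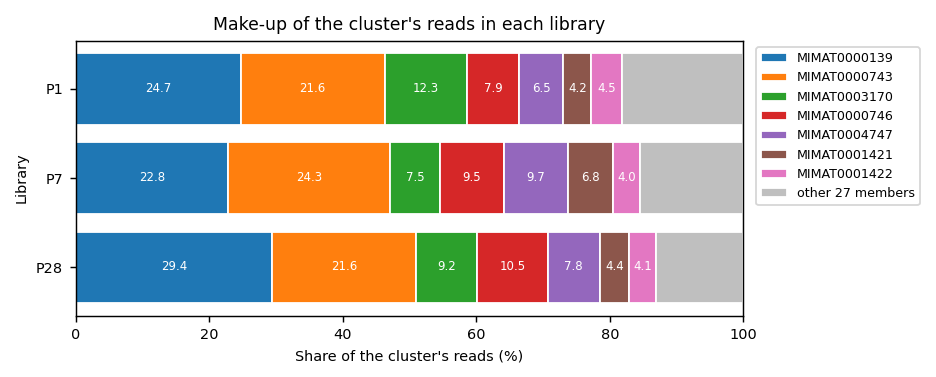
Share of the cluster's reads in percent (x axis) held by the 7 most abundant members and by the 27 others, in the P1, P7 and P28 libraries. MIMAT0000139 takes the largest part at P1 and P28 and MIMAT0000743 at P7, and MIMAT0003170 shrinks from 12.3% at P1 to 7.50% at P7.

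The order of the more and the less abundant members by median ratio depended on the comparison. Of the 24, the 12 more abundant had log2 ratios between -3.64 and -1.48 from P1 to P28, with a median of -2.11. The 12 less abundant had ratios between -4.40 and -1.70, with a median of -2.51. From P7 to P28 the order was the opposite, with a median of -2.02 for the 12 more abundant and -1.73 for the 12 less abundant. The ranges overlapped in both comparisons, and abundance was the mean over the same libraries that form the ratios. The 24 members had an SD of 0.73 on the log2 scale from P1 to P28.

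The other members between 10 and 50 CPM by their mean followed the same direction at P28. MIMAT0000747, MIMAT0001090, MIMAT0003168, MIMAT0001091, MIMAT0003456, MIMAT0000567, MIMAT0000551 and MIMAT0001092 had 34 to 156 reads in the P1 library, 27 to 116 in the P7 library and 10 to 35 in the P28 library. Their log2 ratios from P1 to P28 lay between -2.86 and -1.76.

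A total of 10 members were below a mean of 10 CPM, with MIMAT0003183 just under it at 9.80 CPM and MIMAT0001092 just above at 11.3 CPM. Together the 10 had 89 reads in the P1 library, 157 in the P7 library and 33 in the P28 library. MIMAT0003169 had no read in any library. A count of 0 allows up to 3 reads, which is 1.54 CPM in the P1 library, 1.22 CPM in the P7 library and 1.06 CPM in the P28 library. MIMAT0000578 had a single read, at P7.

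MIMAT0001418, MIMAT0000745 and MIMAT0000741 were read at P1 and P7 and had 0 reads at P28. MIMAT0001418 had 17 reads at P1 (8.74 CPM) and 36 at P7 (14.6 CPM), and with the 0 reads set at 3 it was 8.28-fold lower at P28 than at P1 and 13.8-fold lower than at P7. The upper limits of the intervals, which also take in the error of the earlier counts, were log2 ratios of -2.59 and -3.42. MIMAT0000745 had 7 reads at P1 and 12 at P7, and by the same setting was 4.61-fold lower at P28 than at P7, with an upper limit of -1.68. MIMAT0000741 had 6 and 5 reads and was 2.92-fold lower at P28 than at P1, with an upper limit of -0.78.

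MIMAT0000164 was at 3.09 CPM (6 reads) in the P1 library, 8.92 CPM (22 reads) in the P7 library and 1.41 CPM (4 reads) in the P28 library, and it was the only one of the 34 members at least 2-fold higher at P7 than at P1. The log2 ratio was 1.45 (0.19 to 3.12), with 6 reads in the lower library. MIMAT0003183, MIMAT0003128, MIMAT0000377 and MIMAT0000740 had 4 to 25 reads in the P1 library, 6 to 33 in the P7 library and 2 to 11 in the P28 library. Of the 10 members below the filter, 6 were at least 2-fold lower at P28 than at P1 and 7 than at P7. No share was computed over all accessions below 10 CPM alone. Among all accessions of at least 1 CPM, those above 10 CPM included, 41.2% were lower at P28 than at P1 and 40.2% than at P7. Over all 34 members, P28 gave the lowest level in 32, and the others were MIMAT0003169 and MIMAT0000578, with 0 and 1 reads in all. The same count was not made over all accessions. Their median at or above 10 CPM was also lower in the P28 library, so the count does not set the members apart.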

How the data were processed

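The authors prepared libraries from total RNA of hearts with a NEBNext small RNA kit. For its RNA sequencing in general, the study states that low-quality reads were removed, TopHat2 aligned the others to mm10, and Bioconductor packages did the counting. The miRBase release, the use of strand and the treatment of reads with several positions are not given in the sources used here. The deposited table holds raw counts, made by the authors, for 2049 rows (1900 mature and 14 stem-loop accessions) and 3 columns, matched to samples by age code.

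Rows were summed per mature accession and divided by the column total. Accessions whose mean level reached 10 CPM were compared. An accession was called when its CPM differed at least 2-fold (4-fold where stated), with 0 reads set to 3. The quasi-likelihood fit of edgeR needs replicates and could not be fitted. Ratios and intervals were tested on simulated counts drawn with counting error only. These counts hold no variation between hearts, so the test does not bear on it. Alternatives were TMM (edgeR 4.0.16), DESeq2 1.42.0 size factors, other totals, filters, folds and pseudocounts. Full values were given for the 10 most abundant members, the 3 lowest and 3 highest ratios at P28 against P1, and members opposite in sign to the cluster total. The members and lists were chosen with earlier results of these data known. Python 3.11.15 with scipy 1.17.1, pandas 2.3.3, matplotlib 3.10.9 and numpy 2.4.6, and R 4.3.3, were used. Sequences came from RefSeq tables (GRCm38.p6).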

Additional observations from a re-analysis of the deposited data

How the results depend on the processing

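The direction of the cluster total at P28 and the absence of members at least 2-fold higher at P28 held under every alternative run. At P28 against P1 the log2 ratio of the cluster was -1.39 with TMM, -1.35 with DESeq2 size factors, -1.56 without the 10 most abundant accessions in the totals, -2.13 without the most abundant member and -2.36 without the 5 most abundant members. At P28 against P7 the same settings gave -1.31, -1.23, -1.61, -2.08 and -2.24. At P7 against P1 the ratio was -0.12 with DESeq2 size factors, 0.050 without the 10 accessions, -0.044 without the most abundant member and -0.12 without the 5. The median of the members at P28 against P7 was -1.27 with TMM and -1.19 with DESeq2 size factors. At P7 against P1, 1 member was higher with a filter at 1 CPM (12.6% of all accessions there) or with none (7.52%), and 2 at 1.5-fold (25.1%). Lower were 0 of 7 with a filter at 100 CPM (10.4% of all), 11 of 24 at 1.5-fold (23.3%) and 0 at 4-fold (0.717%). With the filter at 100 CPM, 7 of 7 members were lower at P28 against P1 (34.3% of all) and 7 of 7 against P7 (32.8%). At 4-fold, 11 were lower at P28 against P7 (15.8%). Members at 0 reads entered the unfiltered median at P28 against P1, -2.18, or -2.06 with these at their bound. Summing rows and counting matching accessions once could not change the members' values, as each had 1 row and both matches lay outside the list. No paired analysis was possible because the design holds a single library per age, and no replicate could be left out. At these depths, values under 10 reads have wide intervals and set no order among members.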
